A study of Mus musculus with 4 samples.

Results

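The Ms4a genes encode membrane-spanning 4-domain (MS4A) proteins, small surface and endosomal proteins that cross the membrane 4 times, and 8 of them are described here in natural killer (NK) cells sorted from mouse spleen. They are Ms4a1, Ms4a4a, Ms4a4b, Ms4a4c, Ms4a6b, Ms4a6c, Ms4a6d and Ms4a7, taken by symbol and matched through the RefSeq gene table to the NCBI Gene numbers in the expression tables, 8 of 17723 genes listed in any library. The members were chosen by their FPKM in these same 4 libraries, so every level and ratio below is a description and carries no test. FPKM is the number of fragments scaled to transcript length and library depth, and genes that a library does not list count as 0 there. The cells were DNAM-1+ NK cells of AML spleen, DNAM-1- NK cells of AML spleen, DNAM-1+ NK cells of normal spleen and DNAM-1- NK cells of normal spleen. DNAM-1 is an activating receptor of NK cells. All mice were C57BL/6J of 6 to 8 weeks by the labels. AML spleens were taken on day 17 after transfer of GFP-marked MLL-AF9 acute myeloid leukaemia cells into hosts that were not irradiated and so kept their own blood cells, and normal spleens are labelled day 0. Each group holds 1 library, the number of mice behind it and the other gates of the sort are not given in the labels, and no difference has a replicate check.

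MS4A proteins work as partners of other receptors and as organisers of membrane domains. Ms4a1 encodes CD20, a surface protein of B cells. The mouse genes Ms4a4b and Ms4a6b are known from T cells, where the product of Ms4a4b associates with the costimulatory receptor GITR. Ms4a4c is less well characterised and is counted here with the lymphoid genes. Ms4a4a, Ms4a6c, Ms4a6d and Ms4a7 are known from monocytes and macrophages, and the product of Ms4a4a associates with the fungal receptor Dectin-1.

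The step size of low microRNA values gave a depth of 8900000 to 9200000 fragments a library, and whole multiples of that depth would match the steps as well. The libraries list 15460 to 16161 genes. All 6 NK markers were abundant in all 4 libraries, with sums of 6165 FPKM (DNAM-1+ AML), 6066 (DNAM-1- AML), 5966 (DNAM-1+ normal) and 4973 (DNAM-1- normal). Markers of other cells were present too and are given beside the genes they move with. In RNA of a whole sort, fewer cells of a type and less RNA per cell cannot be told apart.

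Ms4a4b was the most abundant member in every library. Ms4a4b (NCBI Gene 60361) was at 552 FPKM in the DNAM-1+ and 383 FPKM in the DNAM-1- library of AML spleen, and at 544 FPKM in the DNAM-1+ and 411 FPKM in the DNAM-1- library of normal spleen. In each spleen the DNAM-1+ library was the higher one, by 1.44-fold in AML and 1.32-fold in normal spleen. Its log2 ratio, taken as all log2 ratios here after adding 1 FPKM to each value, was 0.53 in AML and 0.40 in normal spleen. Ms4a4b held 79.3% of the summed FPKM of the 8 genes in the DNAM-1+ and 61.0% in the DNAM-1- library of AML spleen, and 79.0% in the DNAM-1+ and 57.2% in the DNAM-1- library of normal spleen. Its level was close to that of Ncr1, which encodes the NK receptor NKp46: 92.5% of it in the DNAM-1+ and 90.5% in the DNAM-1- library of AML spleen, and 94.99% in the DNAM-1+ and 107% in the DNAM-1- library of normal spleen.

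Ms4a6b, the other member known from T cells, stood on the same side. Ms4a6b (69774) was at 72.2 FPKM in the DNAM-1+ and 50.1 FPKM in the DNAM-1- library of AML spleen, and at 77.9 FPKM in the DNAM-1+ and 64.9 FPKM in the DNAM-1- library of normal spleen. The DNAM-1+ library was the higher one in each spleen, with log2 ratios of 0.52 in AML and 0.26 in normal spleen. Tnfrsf18, the gene of GITR itself, was at 53.1 FPKM in the DNAM-1+ and 35.3 FPKM in the DNAM-1- library of AML spleen, and at 48.7 FPKM in the DNAM-1+ and 34.1 FPKM in the DNAM-1- library of normal spleen. It was the only 1 of the 4 listed partner genes at 5 FPKM or more, the level set for counting, and did not pass 2-fold in either spleen. The other 3 partner genes, at 3.70 FPKM or less in every library, could not be counted. They differed little or unevenly, with log2 ratios in AML and normal spleen of 0.26 and 0.07 for the costimulatory receptor gene Tnfrsf4, 0.44 and -0.01 for Cd4, and -0.01 and 0.57 for Cd8a. The T cell receptor chain genes Cd3d, Cd3e and Cd3g lay on that side too. The sum of the T cell markers was 92.9 FPKM in the DNAM-1+ and 48.4 FPKM in the DNAM-1- library of AML spleen, and 104 FPKM in the DNAM-1+ and 53.0 FPKM in the DNAM-1- library of normal spleen, and 3 of 9, the genes named, passed 2-fold in each spleen. The T cell genes Cd5 and Cd6 were at 1 FPKM or less in every library, Cd8b1 was lower in DNAM-1+ cells (log2 ratios -0.90 and -0.95), and each of the 9 was listed in every library. Their part in the levels of Ms4a4b and Ms4a6b was not tested.

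**Figure D1:**
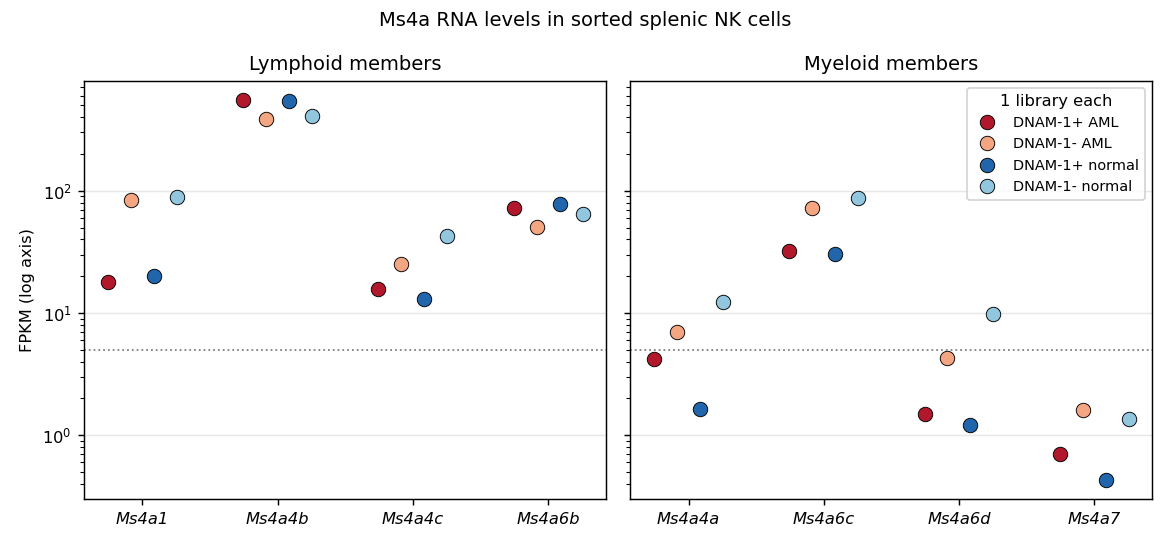
FPKM (log axis) of the 8 Ms4a genes in the 4 libraries, 1 point a library, with the lymphoid members on the left, the myeloid members on the right and a dotted line at 5 FPKM. Ms4a4b lies at 383 to 552 FPKM in all libraries, while Ms4a7 stays under 2 FPKM.

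Ms4a1 went the other way, and by the most of the lymphoid members. Ms4a1 (12482), the CD20 gene, was at 17.8 FPKM in the DNAM-1+ and 83.85 FPKM in the DNAM-1- library of AML spleen, and at 20.2 FPKM in the DNAM-1+ and 89.5 FPKM in the DNAM-1- library of normal spleen. Both DNAM-1- libraries were far above both DNAM-1+ libraries, with log2 ratios of -2.17 in AML and -2.09 in normal spleen. At the estimated depth these levels rest on about 492 and 2295 fragments in AML and 572 and 2450 in normal spleen, and the log2 ratio of the deposited values has a 95% counting interval of -2.38 to -2.10 in AML and -2.28 to -2.01 in normal spleen. Such intervals cover counting error only.

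In both spleens all 10 B cell markers were also at least 2-fold lower in the DNAM-1+ library, and each was listed in every library. They summed to 239 FPKM in the DNAM-1+ and 992 FPKM in the DNAM-1- library of AML spleen, and to 210.2 FPKM in the DNAM-1+ and 1023 FPKM in the DNAM-1- library of normal spleen. Ms4a1 came to 7.45% of that sum in the DNAM-1+ and 8.45% in the DNAM-1- library of AML spleen, and to 9.62% in the DNAM-1+ and 8.75% in the DNAM-1- library of normal spleen. Its share thus ran from 7.45% to 9.62% in libraries in which its own level differed more than 4-fold. Between the spleens Ms4a1 parted from the list. In DNAM-1+ cells it was lower in AML (log2 ratio -0.175), while 9 of 10 markers were higher. The log2 subset ratio in AML minus that in normal spleen was -0.08 for Ms4a1 and above 0 for 10 of 10 markers. Of 9 genes of CD20 partners and B cell receptor signalling, 7 passed 2-fold on the lower side in AML spleen and 8 in normal spleen. The exception in both was Syk, a kinase of B cells and NK cells alike (log2 ratios -0.54 and -0.55), joined in AML spleen by the kinase gene Lyn (-0.75). The part of B cells in the Ms4a1 level was not tested.

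Ms4a4c was also lower in DNAM-1+ cells, but by different amounts in the spleens. Ms4a4c (64380) was at 15.8 FPKM in the DNAM-1+ and 24.99 FPKM in the DNAM-1- library of AML spleen, and at 13.0 FPKM in the DNAM-1+ and 42.7 FPKM in the DNAM-1- library of normal spleen. The 4 values fall into 2 low DNAM-1+ libraries and 2 higher DNAM-1- libraries, of which the normal one is highest. The log2 ratio was -0.63 in AML and -1.64 in normal spleen.

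Ms4a6c was the leading myeloid member. Ms4a6c (73656) was at 32.2 FPKM in the DNAM-1+ and 72.8 FPKM in the DNAM-1- library of AML spleen, and at 30.4 FPKM in the DNAM-1+ and 86.4 FPKM in the DNAM-1- library of normal spleen. The DNAM-1+ libraries were again the low ones, with log2 ratios of -1.15 in AML and -1.48 in normal spleen. Against Csf1r, the receptor gene of the monocyte and macrophage growth factor, Ms4a6c stood higher in DNAM-1+ than in DNAM-1- libraries. It came to 328% of Csf1r in the DNAM-1+ and 126% in the DNAM-1- library of AML spleen, and to 417% in the DNAM-1+ and 145% in the DNAM-1- library of normal spleen. Ms4a6c therefore differed less across the sort than Csf1r, whose log2 ratios were -2.43 and -2.87. Against summed marker lists Ms4a6c stood lower in the DNAM-1+ libraries. It came to 5.42% of the general monocyte markers in the DNAM-1+ and 7.43% in the DNAM-1- library of AML spleen. In normal spleen these shares were 5.89% and 9.18%. Of the non-classical monocyte markers it came to 3.40% and 6.38% in AML, and 3.54% and 7.73% in normal spleen. Genes that differed little across the sort weigh more in the DNAM-1+ sums. In AML spleen Itgam, Ccr2 and Ly6c2 gave 484 of 595 FPKM in the DNAM-1+ and 494 of 980 FPKM in the DNAM-1- library. Spn and Itgal gave 853 of 949 FPKM and 814 of 1141 FPKM of the non-classical sums. The shares of the sums therefore do not show how Ms4a6c moved against the other markers of the lists.

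Ms4a4b and Ms4a4c, and likewise Ms4a6b and Ms4a6c, are close copies of each other, which bears on how well short reads tell them apart. In GENCODE M21 transcripts the coding sequences of Ms4a4b and Ms4a4c were 91.8% identical over 681 aligned bases, and those of Ms4a6b and Ms4a6c were 85.3% identical over 645. Between Ms4a1 and the other members identity was 55.4% to 60.3%. Of all 50-base windows of the transcript, 8.00% in Ms4a4c also occur in Ms4a4b and 2.85% in Ms4a4b also occur in Ms4a4c. Ms4a6c shares 11.3% of its windows with 11 other genes and 6.08% with Ms4a6b, and Ms4a6b shares 6.11% with Ms4a6c and 2.44% with Ms4a6d. Ms4a1, Ms4a4a and Ms4a7 share 0 windows with any other gene. Levels of Ms4a4c, Ms4a6b, Ms4a6c and Ms4a6d are uncertain to the extent that the authors' counting split shared reads, and the read length is not given in the sources used here. The most and the least alike 60 bases of each coding pair are shown to let both cases be seen, in lower case with capitals at the bases that differ between the genes of a pair. Ms4a4b and Ms4a4c are identical over bases 321 to 380 of the coding sequence and differ at 13 of bases 188 to 247, and Ms4a6b and Ms4a6c differ at 1 of bases 228 to 287 and at 16 of bases 30 to 89, counted from the start codon.
Ms4a4b and Ms4a4c, bases 321 to 380: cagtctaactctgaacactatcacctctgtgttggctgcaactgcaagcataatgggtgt
Ms4a4b, bases 188 to 247: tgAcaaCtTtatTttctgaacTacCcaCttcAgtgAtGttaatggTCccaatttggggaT
Ms4a4c, bases 188 to 247: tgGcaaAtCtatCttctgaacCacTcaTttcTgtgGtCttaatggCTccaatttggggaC
Ms4a6b, bases 228 to 287: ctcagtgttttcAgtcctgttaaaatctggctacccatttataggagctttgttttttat
Ms4a6c, bases 228 to 287: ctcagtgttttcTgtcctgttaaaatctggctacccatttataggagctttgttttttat
Ms4a6b, bases 30 to 89: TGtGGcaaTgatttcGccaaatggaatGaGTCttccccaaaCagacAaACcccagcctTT
Ms4a6c, bases 30 to 89: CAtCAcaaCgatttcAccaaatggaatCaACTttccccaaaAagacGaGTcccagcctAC

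Ms4a4a and Ms4a6d were low in DNAM-1+ cells and had their highest level in DNAM-1- cells of normal spleen. Ms4a4a (666907) was at 4.18 FPKM in the DNAM-1+ and 7.02 FPKM in the DNAM-1- library of AML spleen, and at 1.63 FPKM in the DNAM-1+ and 12.2 FPKM in the DNAM-1- library of normal spleen. Ms4a6d (68774) was at 1.49 FPKM in the DNAM-1+ and 4.29 FPKM in the DNAM-1- library of AML spleen, and at 1.21 FPKM in the DNAM-1+ and 9.81 FPKM in the DNAM-1- library of normal spleen. For both genes the gap between the subsets was wider in normal spleen. The log2 ratio of Ms4a4a was -0.63 in AML and -2.33 in normal spleen, and that of Ms4a6d was -1.09 and -2.29. The lowest values rest on few fragments, about 13 for Ms4a4a and 16 for Ms4a6d in DNAM-1+ cells of normal spleen. Clec7a, the gene of Dectin-1, was lower in DNAM-1+ cells by a similar amount in both spleens, at 2.87 FPKM in the DNAM-1+ and 13.6 FPKM in the DNAM-1- library of AML spleen and at 2.53 FPKM in the DNAM-1+ and 11.7 FPKM in the DNAM-1- library of normal spleen.

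Ms4a7, known from tissue macrophages and microglia, was the lowest member. Ms4a7 (109225) was at 0.70 FPKM in the DNAM-1+ and 1.6 FPKM in the DNAM-1- library of AML spleen, and at 0.43 FPKM in the DNAM-1+ and 1.36 FPKM in the DNAM-1- library of normal spleen. It never reached 5 FPKM, the level set for counting fold differences, and its values rest on an estimated 6 to 22 fragments. Its DNAM-1- libraries were above its DNAM-1+ libraries, with log2 ratios of -0.61 in AML and -0.72 in normal spleen.

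Many, but not all, markers of monocytes and macrophages lay on the side of these 4 genes, and each was listed in every library. Non-classical monocyte markers were lower in DNAM-1+ cells, by 2-fold or more, for 5 of 8 genes in AML spleen and 6 of 8 in normal spleen, with median log2 ratios of -2.76 and -2.84. Spn and Itgal, both also expressed by NK cells, were slightly higher in DNAM-1+ cells and make up most of the list's sum, which was 949 FPKM in the DNAM-1+ and 1141 FPKM in the DNAM-1- library of AML spleen, and 861 FPKM in the DNAM-1+ and 1117 FPKM in the DNAM-1- library of normal spleen. General monocyte markers passed 2-fold on the lower side, at 5 FPKM or more, for 3 of 8 genes in AML and 4 of 8 in normal spleen. Fcgr1 in AML spleen (log2 ratio -1.415) is left out by that floor alone. The list summed to 595 FPKM in the DNAM-1+ and 980 FPKM in the DNAM-1- library of AML spleen, and to 517 FPKM in the DNAM-1+ and 941 FPKM in the DNAM-1- library of normal spleen. Of that sum 484 FPKM in the DNAM-1+ and 494 FPKM in the DNAM-1- library of AML spleen, and 421 FPKM in the DNAM-1+ and 443 FPKM in the DNAM-1- library of normal spleen, came from Itgam, Ccr2 and Ly6c2. Itgam (log2 ratios -0.22 and -0.19) and Ly6c2 (-0.04 and -0.21) were nearly level, and Ccr2 was higher in DNAM-1+ cells (0.38 and 0.31). Macrophage markers were below 0 for 12 of 12 genes in both spleens, and passed 2-fold at 5 FPKM or more for 2 of 12 in AML and 8 of 12 in normal spleen. The floor alone left out Spic in AML (log2 ratio -1.23) and Cd5l in normal spleen (-1.11). C1qa (-0.97) and Vcam1 (-0.96) fell just short of 2-fold in AML spleen. The median log2 ratio of the 11 markers at 1 FPKM or more was -0.88 in AML and -1.26 in normal spleen. The log2 ratio was lower in normal than in AML spleen for 10 of 12, Spic and Timd4 being the other way. They summed to 35.8 FPKM in the DNAM-1+ and 81.9 FPKM in the DNAM-1- library of AML spleen, and to 32.0 FPKM in the DNAM-1+ and 101 FPKM in the DNAM-1- library of normal spleen. The part of these cells in the levels of the myeloid members was not tested.

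**Figure D2:**
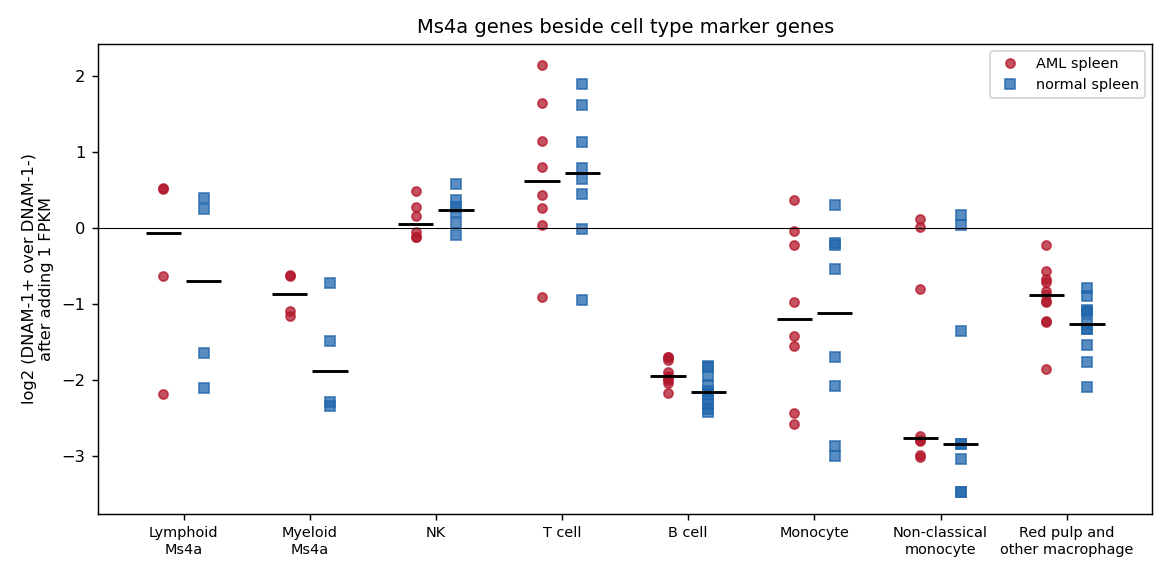
Log2 ratio of DNAM-1+ over DNAM-1- cells for each Ms4a gene and for each marker gene at 1 FPKM or more in any library, by list, with AML spleen (circles) left of normal spleen (squares) and bars at the medians. The 10 B cell markers lie near the value of Ms4a1 (-2.17 and -2.09), and the myeloid Ms4a genes have medians of -0.86 in AML and -1.88 in normal spleen.

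Counted over the family, 2 of 8 members (Ms4a1 and Ms4a6c) were at least 2-fold lower and 0 at least 2-fold higher in DNAM-1+ than in DNAM-1- cells of AML spleen, and 6 of 8 reached 5 FPKM in one library of the pair. Ms4a6d, at a log2 ratio of -1.09, is left out by that floor alone, and with a floor of 1 FPKM the count of lower members is 3. Among all 8839 genes that reached 5 FPKM, 3.19% were at least 2-fold lower and 0.894% at least 2-fold higher. In normal spleen 5 of 8 members (Ms4a1, Ms4a4c, Ms4a4a, Ms4a6c and Ms4a6d) were at least 2-fold lower and 0 higher, with 7 of 8 at 5 FPKM or more, beside 3.97% lower and 1.28% higher among 8915 genes. Since the members were named from these values, nothing is read from those counts. The median log2 ratio of the lymphoid members was -0.055 in AML and -0.69 in normal spleen, and that of the myeloid members -0.86 and -1.88, beside 0.01 for all genes in each spleen. The sign of the lymphoid median depends on which members are counted: Ms4a4c, counted as myeloid, leaves lymphoid medians of 0.52 in AML and 0.26 in normal spleen. The sign depends in the same way on Ms4a1, the other lymphoid member below 0. The lymphoid list was split, with 2 members above 0 and 2 below in each spleen, while all 4 myeloid members were below 0 in both. Among all genes at 5 FPKM or more, 4161 of 8839 were below 0 in AML and 4265 of 8915 in normal spleen.

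**Figure D3:**
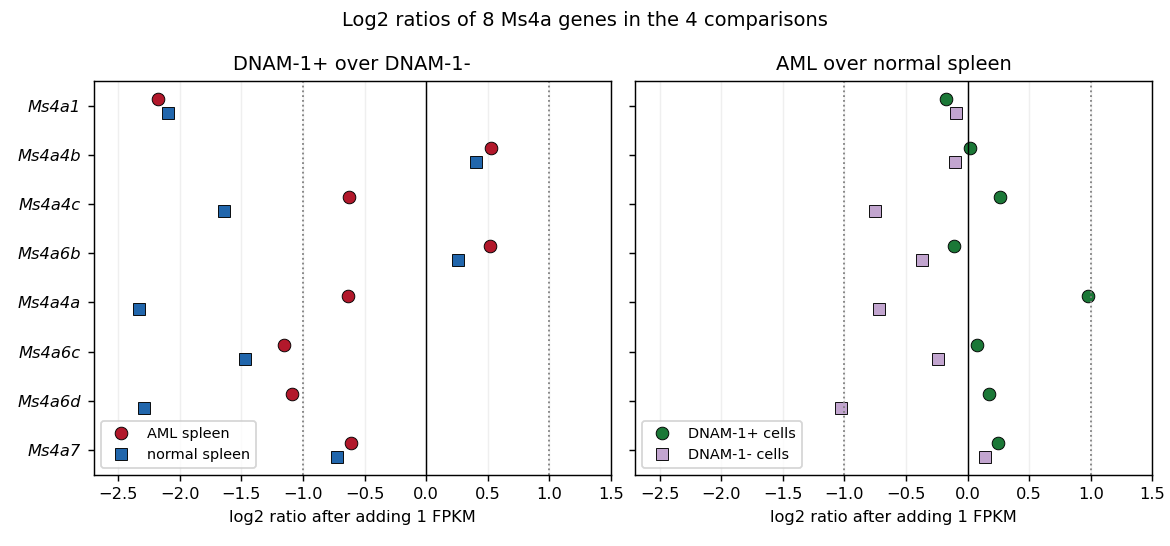
Log2 ratios of the 8 Ms4a genes after adding 1 FPKM, for DNAM-1+ over DNAM-1- cells (left) and for AML over normal spleen (right), with dotted lines at a 2-fold difference. Ms4a4b and Ms4a6b lie right of 0 in both spleens on the left panel and the other 6 genes lie left of it.

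The sum of the 8 genes hid these shifts. It was 697 FPKM in the DNAM-1+ and 628 FPKM in the DNAM-1- library of AML spleen, and 689 FPKM in the DNAM-1+ and 718 FPKM in the DNAM-1- library of normal spleen. The myeloid members made up 5.54% of it in the DNAM-1+ and 13.6% in the DNAM-1- library of AML spleen, and 4.90% in the DNAM-1+ and 15.3% in the DNAM-1- library of normal spleen. Ms4a1 alone made up 2.55% in the DNAM-1+ and 13.4% in the DNAM-1- library of AML spleen, and 2.94% in the DNAM-1+ and 12.5% in the DNAM-1- library of normal spleen.

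Between AML and normal spleen few genes of any kind passed 2-fold. In DNAM-1+ cells 0 of 8 members were at least 2-fold higher or lower in AML than in normal spleen, beside 0.311% and 0.346% of 8682 genes. Of the 8, only 5 reached 5 FPKM in a library of the pair and could be counted, among them 1 of the 4 myeloid members. Ms4a4a came nearest, at 4.18 FPKM in AML and 1.63 FPKM in normal spleen, a log2 ratio of 0.98. Both values are under 5 FPKM, and the log2 ratio of the deposited values, 1.36, has a counting interval of 0.31 to 2.34. The other 7 log2 ratios in DNAM-1+ cells ran from -0.17 (Ms4a1) to 0.26 (Ms4a4c).

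In DNAM-1- cells 1 of 8 members, Ms4a6d, was at least 2-fold lower in AML than in normal spleen and 0 were higher, beside 0.397% lower and 0.193% higher among 8808 genes. Of the 8, 7 reached 5 FPKM in a library of the pair. Ms4a6d was at 4.29 FPKM in AML and 9.81 FPKM in normal spleen, a log2 ratio of -1.03. Ms4a4c (-0.75) and Ms4a4a (-0.72) followed, and 7 of 8 members were on the lower side. Among the 8808 genes, 4422 were on the lower side. Of the 12 macrophage markers 9 lay on that side, 3 (Adgre1, Vcam1 and Mrc1) were slightly higher in AML, and 0 passed 2-fold. The list summed to 81.9 FPKM in DNAM-1- cells of AML and 101 FPKM in those of normal spleen, and the complement genes C1qa, C1qb and C1qc, which carry most of that difference, to 32.5 FPKM in AML and 46.6 FPKM in normal spleen. The myeloid growth factor receptor gene Csf1r was nearly level in DNAM-1- cells, at 57.6 FPKM in AML and 59.7 FPKM in normal spleen. Of the 8 general monocyte markers, 4 were higher and 4 lower in AML in these cells. Fcgr1 alone passed 2-fold, at 2.92 FPKM in AML and 7.41 FPKM in normal spleen (log2 ratio -1.10). B cell markers summed to 992 FPKM in DNAM-1- cells of AML and 1023 FPKM in those of normal spleen, and Ms4a1 had a log2 ratio of -0.09.

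For 3 members the subset ratio was higher in AML than in normal spleen by 1 or more on the log2 scale after adding 1 FPKM, and for 0 after adding 5 FPKM. After adding 1 FPKM, the log2 ratio of DNAM-1+ over DNAM-1- cells in AML spleen minus that in normal spleen was 1.70 for Ms4a4a, 1.203 for Ms4a6d and 1.01 for Ms4a4c. After adding 5 FPKM these differences were 0.99, 0.74 and 0.88. With 1 FPKM added, the difference was 0.32 for Ms4a6c, 0.26 for Ms4a6b, 0.12 for Ms4a4b, 0.11 for Ms4a7 and -0.08 for Ms4a1. Among 9074 genes that reached 5 FPKM in at least 1 library, with 1 FPKM added, it was 1 or more for 0.661% and -1 or less for 0.43%. With 1 library in each group the difference itself has no test.

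**Figure D4:**
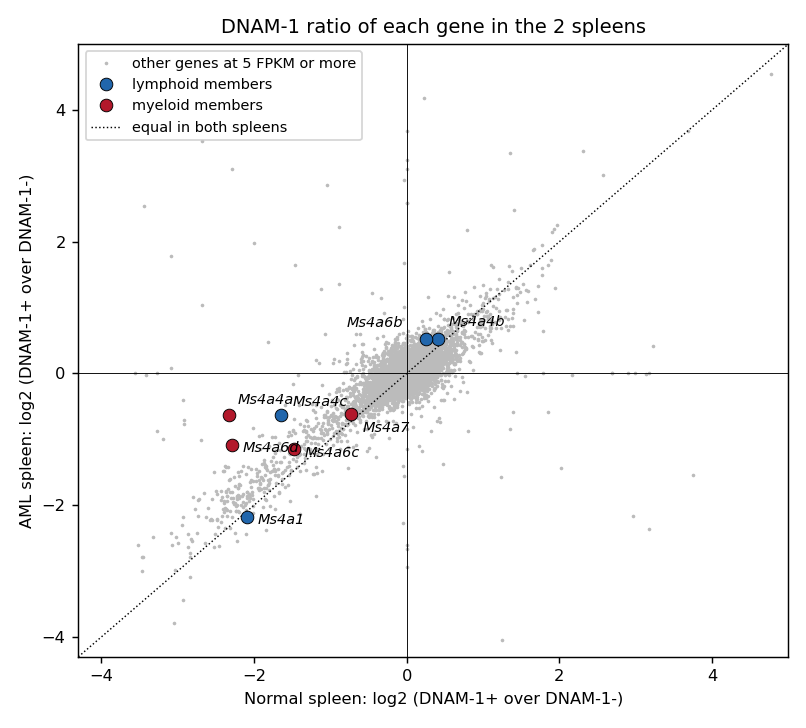
Log2 ratio of DNAM-1+ over DNAM-1- cells in AML spleen (vertical) against that in normal spleen (horizontal), after adding 1 FPKM, for genes that reach 5 FPKM in at least 1 library (grey) and the 8 Ms4a genes. Ms4a4a, Ms4a6d and Ms4a4c lie above the line of equal ratios, by 1.70, 1.203 and 1.01, and Ms4a1 lies close to it.

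Opposite ratios stood side by side on the chromosome. The Ms4a genes form a cluster on mouse chromosome 19, in the order Ms4a1, Ms4a7, Ms4a4a, Ms4a4c, Ms4a4b, Ms4a6c, Ms4a6b and Ms4a6d among the 8 members in the RefSeq table of GRCm38.p6. Ms4a4b, higher in DNAM-1+ cells, lies between Ms4a4c and Ms4a6c, which were lower, and Ms4a6b lies beyond Ms4a6c and before Ms4a6d. Ms4a4b stood at 34.9 times the FPKM of Ms4a4c in the DNAM-1+ and 15.3 times in the DNAM-1- library of AML spleen, and at 41.8 times in the DNAM-1+ and 9.61 times in the DNAM-1- library of normal spleen. Ms4a6b stood at 2.24 times the FPKM of Ms4a6c in the DNAM-1+ and 0.688 times in the DNAM-1- library of AML spleen, and at 2.56 times in the DNAM-1+ and 0.752 times in the DNAM-1- library of normal spleen. Ms4a6b was thus above Ms4a6c in the DNAM-1+ libraries and below it in the DNAM-1- libraries of both spleens. The predicted gene Gm8369, between Ms4a6c and Ms4a6b and named after its values were seen, was at 2.99 FPKM in the DNAM-1+ and 7.80 FPKM in the DNAM-1- library of AML spleen, and at 1.99 FPKM in the DNAM-1+ and 10.3 FPKM in the DNAM-1- library of normal spleen. Its log2 ratios were -1.14 in AML and -1.92 in normal spleen. Its coding sequence was 88.7% identical to that of Ms4a4b and 89.2% to that of Ms4a4c, each over 372 aligned bases, though it is not in the family list used here.

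**Figure D5:**
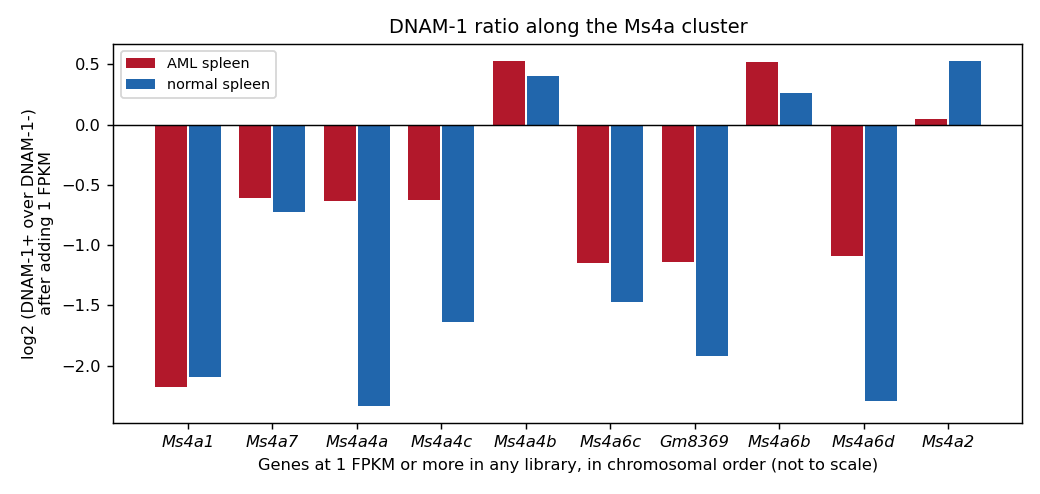
Log2 ratio of DNAM-1+ over DNAM-1- cells after adding 1 FPKM, in AML (left bar) and normal spleen (right bar), for the genes at 1 FPKM or more from Ms4a1 to Ms4a2 in chromosomal order. The bars of Ms4a4b and Ms4a6b point up in both spleens between genes whose bars point down.

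The promoters of the close copies on this chromosome are alike too. RefSeq promoter windows of GRCm38.p6, from 250 bases before to 50 after the start of the gene, were found for 6 of 8 members, with a pair of starts for Ms4a7. No window was found for Ms4a1 or Ms4a6d, so their promoters were neither aligned nor searched for motifs. Those of Ms4a4b and Ms4a4c were 74.7% identical over 293 aligned bases, and those of Ms4a6b and Ms4a6c 85.3% over 225, while other pairs of members were at 43.3% to 53.4%. The windows were searched on both strands for 7 motifs: PU.1 (GAGGAAGT), octamer (ATGCAAAT), interferon response (GAAA, any 2 bases, GAAA), T-box (GGTGTGA), RUNX (TGTGGTT), AP-1 (TGACTCA) and ETS (CAGGAAGT). PU.1 and ETS differ in their first letter only, and no matches overlapped. The octamer motif, known from B cell promoters, was found once, in Ms4a4c, and 1.74% of all 32851 promoters hold it. The ETS motif was found once, in Ms4a6b (3.33% of all promoters), and the T-box motif once, in Ms4a7 (3.98%). PU.1, interferon response, RUNX and AP-1 letters were in 0 of the members' windows, against 3.20%, 3.44%, 5.27% and 5.20% of all promoters. The bases before the start of the 4 neighbouring genes with opposite ratios are shown with motif matches in capitals.
Ms4a4b, chr19:11443308-11443557, plus strand: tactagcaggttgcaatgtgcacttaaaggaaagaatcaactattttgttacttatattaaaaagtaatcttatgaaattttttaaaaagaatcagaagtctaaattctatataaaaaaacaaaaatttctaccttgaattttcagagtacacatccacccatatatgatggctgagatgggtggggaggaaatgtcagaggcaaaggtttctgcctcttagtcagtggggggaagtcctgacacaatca
Ms4a4c, chr19:11407411-11407660, plus strand: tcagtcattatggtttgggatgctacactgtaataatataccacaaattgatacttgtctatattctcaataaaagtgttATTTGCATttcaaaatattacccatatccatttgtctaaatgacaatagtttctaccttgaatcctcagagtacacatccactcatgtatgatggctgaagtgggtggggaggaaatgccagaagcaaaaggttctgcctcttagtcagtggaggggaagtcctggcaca
Ms4a6b, chr19:11518309-11518558, plus strand: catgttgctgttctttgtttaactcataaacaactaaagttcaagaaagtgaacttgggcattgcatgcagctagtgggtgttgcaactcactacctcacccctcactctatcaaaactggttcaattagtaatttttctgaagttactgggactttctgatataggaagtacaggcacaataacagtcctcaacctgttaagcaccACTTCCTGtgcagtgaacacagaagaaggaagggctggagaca
Ms4a6c, chr19:11469118-11469367, plus strand: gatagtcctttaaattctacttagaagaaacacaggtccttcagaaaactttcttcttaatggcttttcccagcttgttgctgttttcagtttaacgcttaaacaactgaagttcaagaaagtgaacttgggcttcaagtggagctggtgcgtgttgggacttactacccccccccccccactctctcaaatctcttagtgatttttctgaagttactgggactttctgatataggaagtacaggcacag

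Other genes with the most similar pattern over the 4 libraries were found by the Euclidean distance between log2 values, each gene centred on its own mean, among 8501 protein-coding genes. Nearest to Ms4a1 were Lgmn, a lysosomal protease (distance 0.07), H2-DMb2, a chain of the MHC class II peptide loader (0.11), and Btla, an inhibitory receptor of lymphocytes (0.13). Nearest to Ms4a6c were Susd1 (0.06), the transcription factor gene Mef2c (0.08) and Rasgef1b (0.09). Ms4a4b and Ms4a6b had each other within 0.22, and genes closer still, which were the DNA replication gene Gins2 (0.02), Ndufa12 and Stk39 (both 0.04) for Ms4a4b, and Tnfrsf26 (0.06), the interleukin-2 receptor gene Il2ra (0.07) and Gtf3c5 (0.08) for Ms4a6b. Ms4a4c had no gene nearer than 0.23 (Snx8, then Chchd10 and Atf3, both 0.24), Ms4a6d none nearer than 0.24 (Ifi207, then Ly6i at 0.30 and Vpreb3 at 0.34) and Ms4a4a none nearer than 0.49 (Bmyc), followed by Ly6i and C1qa (both 0.55). Among the members, Ms4a4c lay nearest to Ms4a6c (0.42), Ms4a6d (0.59) and Ms4a4a (0.61), and farther from Ms4a6b (1.57) and Ms4a4b (1.67). These are distances over 4 values and say how alike the patterns look.

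Of 10 other Ms4a genes of the list, 4 were not listed in any library (Ms4a5, Ms4a10, Ms4a13 and Ms4a14) and none reached 5 FPKM. Ms4a15, Ms4a2 and Ms4a8a reached 1 FPKM. Ms4a15 was at 1.69 FPKM in the DNAM-1+ and 2.35 FPKM in the DNAM-1- library of AML spleen, and at 1.08 FPKM in the DNAM-1+ and 2.86 FPKM in the DNAM-1- library of normal spleen. Ms4a8a was at 0.20 FPKM in the DNAM-1+ and 0.71 FPKM in the DNAM-1- library of AML spleen, and at 0.30 FPKM in the DNAM-1+ and 1.13 FPKM in the DNAM-1- library of normal spleen. Ms4a3, known from myeloid progenitors and named here after its values were seen, like the unlisted genes, stayed at or under 0.23 FPKM. The related 4-domain genes Tmem176a and Tmem176b were nearly level across the libraries. Tmem176a was at 11.0 FPKM in the DNAM-1+ and 11.1 FPKM in the DNAM-1- library of AML spleen, and at 12.5 FPKM in the DNAM-1+ and 11.7 FPKM in the DNAM-1- library of normal spleen. Tmem176b was at 20.2 FPKM in the DNAM-1+ and 19.4 FPKM in the DNAM-1- library of AML spleen, and at 16.8 FPKM in the DNAM-1+ and 20.8 FPKM in the DNAM-1- library of normal spleen. Of these 12 family and related genes, only Tmem176a and Tmem176b reached the 5 FPKM needed for counting fold differences. Neither was at least 2-fold higher or lower in any of the 4 comparisons, and the 10 Ms4a genes could not be counted.

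Markers of the remaining cell types give the surroundings of these values. Plasma cell markers were lower in DNAM-1+ cells, by 2-fold or more and at 5 FPKM or more, for 1 of 5 genes in each spleen. By the same rule neutrophil markers were lower for 1 of 7 in AML and 0 of 7 in normal spleen. Dendritic cell markers were lower for 1 of 6 and 0 of 6. Of 5 mast cell and basophil genes only Kit, also expressed by other cells, was above 1 FPKM, and it was more abundant in DNAM-1+ cells of each spleen (log2 ratios 1.29 in AML and 1.09 in normal spleen). The 8 leukaemia and progenitor genes summed to 5.19 FPKM in the DNAM-1+ and 5.89 FPKM in the DNAM-1- library of AML spleen, and to 2.05 FPKM in the DNAM-1+ and 1.70 FPKM in the DNAM-1- library of normal spleen.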

How the data were processed

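Libraries from total RNA of sorted NK cells were made by BGISEQ-500 protocols, per the labels' protocols. The deposited values are FPKM per gene, computed by the authors per the file headers, to 2 decimals, with only genes above 0 listed. Bowtie2 2.2.5 and RSEM are named, with no role, per the submitters' processing notes, and the genome build and annotation are not given in the sources used here. Gene numbers were matched to symbols through the RefSeq table of GRCm38.p6 (17668 of 17723).

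Each of 4 comparisons is a log2 ratio of 2 libraries after adding 1 FPKM, and a gene was counted as different at 2-fold or more with 5 FPKM or more in the higher library. There was no test, because each group has 1 library. The members, gene lists and cell type markers were chosen with earlier results of these data known. Named genes are the 8 members, listed family genes at 1 FPKM or more, listed receptor partners, and for each member at 5 FPKM or more in any library the 3 nearest protein-coding genes, named with their distances. Windows of 50 bases, coding pairs and motifs were chosen after the data had been seen, and 3 family symbols outside the list (Ms4a12, Ms4a19 and Ms4a20) reached at most 0.18 FPKM. Depth was estimated from low values of microRNA genes of 55 to 100 bases. It was searched, with a length offset, for a high share of values within 0.1 of a whole number of fragments. The share reached, 90.3% to 93.9% of the low values used, is the fitted quantity and no separate check of the depth. The depth sets the counting intervals (95%, exact binomial, on the longest GENCODE M21 coding transcript with a RefSeq record), which cover counting error only. Alternatives were pseudocounts of 0.1 and 5 FPKM, rescaling to TPM, median ratio scaling over genes at 20 FPKM or more, a floor of 1 FPKM or none, protein-coding genes alone, and Ms4a4c counted as myeloid. Python 3.11.15, pandas 2.3.3 and Biopython 1.88 were used, and the fold rule and the depth estimate were tested on simulated data.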

Additional observations from a re-analysis of the deposited data

Results flagged for a closer look

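Members for which AML and normal spleen differed in opposite directions between the DNAM-1 subsets, each beyond its counting interval, were Ms4a4a and Ms4a4c. In DNAM-1+ cells Ms4a4a was higher in AML than in normal spleen (log2 ratio 0.98), and in DNAM-1- cells it was lower in AML than in normal spleen (-0.72). For Ms4a4c these log2 ratios were 0.26 in DNAM-1+ cells and -0.75 in the DNAM-1- sort, and the lower end of the counting interval of the first, on the deposited values, was 0.01. The difference between the subsets was not tested, since each value compares 1 library with 1 library.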

How the results depend on the processing

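Each of the 32 log2 ratios of the members (8 genes, 4 comparisons) kept its sign under the pseudocounts of 0.1 and 5 FPKM, the rescaling to TPM and the median ratio scaling. Of 128 such values 6 moved by more than the counting interval reaches to either side, all for DNAM-1+ over DNAM-1- cells. Counted as myeloid, Ms4a4c left lymphoid medians of 0.52 (DNAM-1+ over DNAM-1-, AML spleen), 0.26 (normal spleen) and -0.10 (AML over normal, DNAM-1- cells). In TPM 1 member (Ms4a4a) was at least 2-fold higher in AML in DNAM-1+ cells, and with a pseudocount of 5 FPKM 0 were lower in AML in DNAM-1- cells. In TPM, and with a floor of 1 FPKM or none, 3 members in place of 2 were lower in DNAM-1+ cells of AML spleen. The subset ratio differed between the spleens by 1 or more for 3 members, except with a pseudocount of 5 FPKM (0 members).

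Counts of all genes moved more. For DNAM-1+ over DNAM-1- in AML spleen 79 genes were higher, or 40 with a pseudocount of 5 FPKM, 178 in TPM and 170 with a floor of 1 FPKM or none, and 282 were lower, or 161, 450 and 444. In normal spleen 114 were higher, or 39, 235 and 221, and 354 lower, or 571 in TPM and 590 with the lower floors. For AML over normal in DNAM-1+ cells 27 were higher, or 91 in TPM, 108 with the lower floors and 3 among protein-coding genes, and 30 lower, or 89, 102 and 11, and 18 with a pseudocount of 5 FPKM. In DNAM-1- cells 17 were higher, or 57, 73 and 2, and 35 lower, or 92, 119 and 17, and 17 with a pseudocount of 5 FPKM. TPM values are larger than FPKM, so the floor of 5 admits more genes. No paired analysis was possible because the labels number no replicates and each group has 1 library, and for the same reason no replicate could be left out.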

Other observations

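Ms4a2, the beta chain of the high-affinity IgE receptor of mast cells and basophils, was listed in all 4 libraries, at 2.44 FPKM in the DNAM-1+ and 2.33 FPKM in the DNAM-1- library of AML spleen, and at 3.03 FPKM in the DNAM-1+ and 1.80 FPKM in the DNAM-1- library of normal spleen. Fcer1a, the alpha chain gene of the same receptor, was not listed in any of the 4, and the basophil protease gene Mcpt8 reached 0.67 FPKM at most. The Ms4a4b transcript shares 63 of its 4701 50-base windows with Ms4a2 transcripts, and the part of such reads in the Ms4a2 level was not tested.

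Among 8656 protein-coding genes that reached 5 FPKM in at least 1 library, the log2 DNAM-1 ratio, after adding 1 FPKM, in AML spleen exceeded that in normal spleen by 1 or more for 12, and 3 of these were Ms4a4a, Ms4a6d and Ms4a4c. The others were Slirp, Pradc1, Rhox8, Bcl2a1d, Tgtp1, the chemokine gene Ccl4, Apol7b, Lenep and the lysozyme gene Lyz1. Ccl4 was at 152 FPKM in the DNAM-1+ and 134 FPKM in the DNAM-1- library of AML spleen, and at 80.95 FPKM in the DNAM-1+ and 151 FPKM in the DNAM-1- library of normal spleen. Lyz1 was at 2.06 FPKM in the DNAM-1+ and 7.64 FPKM in the DNAM-1- library of AML spleen, and at 0.76 FPKM in the DNAM-1+ and 9.16 FPKM in the DNAM-1- library of normal spleen. The members were named with such values in view, so this count is a description, the 3 fall under 1 after adding 5 FPKM, and Ccl4 and Lyz1 were picked after their values were seen.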
